A study of Mus musculus with 3 samples.

Results

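The genes described here are 10 components of the muscle atrophy programme, chosen by symbol from the 23238 gene symbols of the count data: the E3 ubiquitin ligase genes Fbxo32, Trim63, Fbxo30 and Nedd4, the FoxO transcription factor genes Foxo1, Foxo3 and Foxo4, the AMPK catalytic subunit genes Prkaa1 and Prkaa2, and the coactivator gene Ppargc1a. RNA sequencing was performed on C2C12 cells, mouse myoblasts that grow as an immortalized line and fuse into myotubes when serum is withdrawn. All cells were kept for 2 days in myogenic induction medium with 2% horse serum, on a tissue culture plate (TCP), on a hydrogel of methacrylated gelatin (GelMA), or on a hydrogel in which 15% methacrylated gelatin was mixed with 1% poly(sodium 4-styrenesulfonate), a polymer whose sulfonate groups stand in for those of heparin (GelMA-PSS). TCP and GelMA are the 2 control substrates, and each of the 3 substrates has 1 library, so that every difference below is between single libraries with no replicate check and no test. The intervals given are exact 95% intervals that cover counting error only.

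Muscle wasting depends largely on the ubiquitin-proteasome system, in which E3 ligases pick the proteins to be degraded. Atrogin-1 (Fbxo32) and MuRF1 (Trim63) are the best known of these ligases in muscle, and their genes are direct targets of FoxO factors, which Akt keeps out of the nucleus when insulin or IGF-1 signaling is active. AMPK, an energy sensor, and PGC-1α (Ppargc1a), a coactivator of mitochondrial genes, act on FoxO from opposite sides: AMPK phosphorylates and activates FoxO3, and PGC-1α restrains its activity.

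The libraries held between 87071144 and 192171443 counts. All 10 muscle markers examined passed the filter in these cells (at least 1 CPM, that is 1 count per 1000000 scaled counts, in at least 1 library), with desmin at 3299 CPM on TCP, 2863 on GelMA and 3154 on GelMA-PSS. Their summed level was 24161, 18259 and 15148 CPM in the same order, with 4 markers lower on GelMA-PSS than on both controls (Myh3, Ckm, Acta1 and Mymk) and 3 higher (Myod1, Myf5 and Cdh15), and the part of this in the values below was not tested. The summed level of the leukocyte markers was at most 1.71 CPM, that of the endothelial markers at most 0.282 CPM and that of the adipocyte markers at most 0.0985 CPM. Of the erythroid markers, Hbb-b1 was at 0 in every library and Hba-a1 was at 0.682 CPM on TCP, 0.968 on GelMA and 2.29 on GelMA-PSS. Cdh1 lay between 5.31 and 10.2 CPM. Transcript length bears on every value below, because the log2 ratio of GelMA-PSS to GelMA went with transcript length across 13050 genes (Spearman's rho = -0.66), as did the ratio of GelMA-PSS to TCP (rho = -0.50), while the ratio of GelMA to TCP leaned slightly the other way (rho = 0.21). These genes share the same 3 libraries. Each log2 ratio is therefore given as scaled and, where it matters, after a correction for transcript length and GC content. Less RNA of a gene per cell and fewer cells that express it cannot be told apart in such bulk libraries.

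All 10 genes passed the filter, and 9 of them were lowest on GelMA-PSS. The exception was Prkaa1, which lay between the controls at nearly the TCP level, and which was also lowest on GelMA-PSS, making it 10 of 10, when libraries were scaled by DESeq2 size factors, by total counts or to TPM (counts per length scaled to a fixed total). Being lower on GelMA-PSS than on both controls by any amount was common, at 39.3% of the 13169 genes tested, and more common still among the 2418 genes with transcripts of 5000 bases or more, at 78.2%. All 7 of the long genes in the set were lower, a count close to that of long transcripts in general. Prkaa2 was the only gene of the 10 to pass 2-fold against both controls, beside 1.16% of all genes tested and 5.00% of those with long transcripts; none was higher past 2-fold, beside 1.37% of all genes. The median log2 ratio over the 10 genes was -0.51 against TCP and -0.38 against GelMA, with medians over all genes of 0.04 and 0.03. After the correction 7 of the 10 genes were lower than both controls, beside 40.3% of all genes, the medians were -0.33 and -0.14, and none passed 2-fold against both.

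Taken singly, 2 genes were lower past 2-fold on GelMA-PSS than on TCP, Foxo1 and Prkaa2, where 3.13% of all genes were lower and 3.72% higher. Against GelMA it was Prkaa2 alone, where 2.33% of all genes were lower and 1.77% higher. No gene of the set differed past 2-fold between GelMA and TCP, as was true of nearly all genes, with 0.296% lower and 0.706% higher on GelMA. The order of the 3 libraries separated the genes further. Fbxo32, Trim63, Foxo1, Foxo4, Prkaa2 and Ppargc1a were highest on TCP, intermediate on GelMA and lowest on GelMA-PSS, an order held by 21.2% of all genes. Foxo3, Nedd4 and Fbxo30 were highest on GelMA and lowest on GelMA-PSS, as were 18.2% of all genes. For Ppargc1a and Fbxo30 the interval of the GelMA to TCP ratio held 1 and its sign changed under other scalings. The order of the controls was therefore not settled for these genes.

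**Figure D1:**
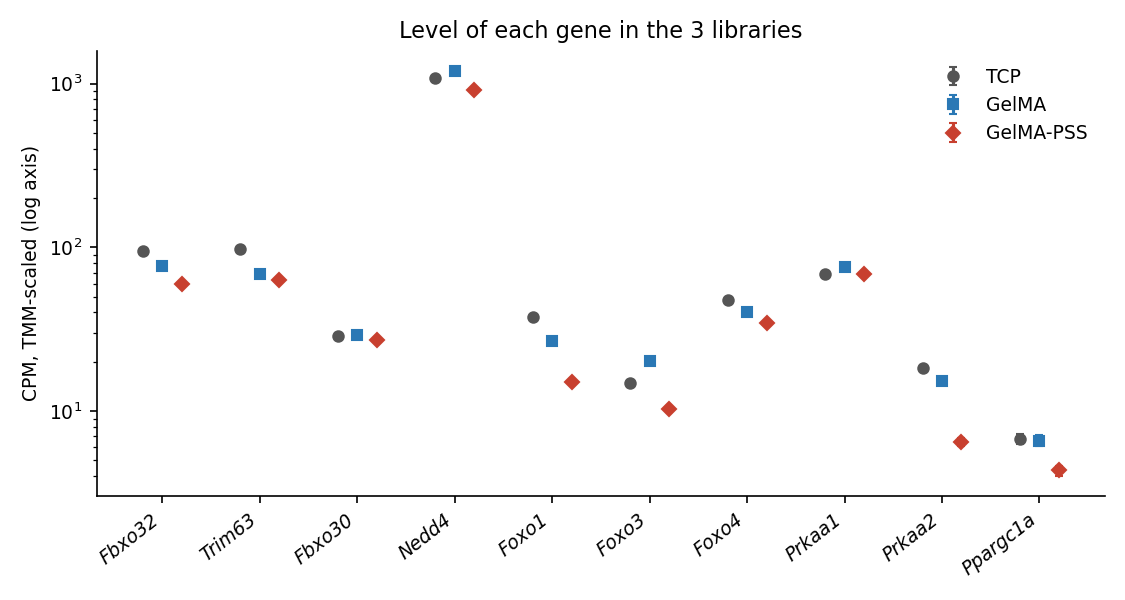
TMM-scaled CPM of each of the 10 genes on a log axis, with 1 symbol per library (circle TCP, square GelMA, diamond GelMA-PSS) and exact Poisson 95% intervals that are mostly smaller than the symbols. The diamond is lowest for every gene but Prkaa1, and Nedd4 lies at 909 to 1186 CPM; levels are not divided by transcript length here.

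Fbxo32 and Trim63, the ligase genes by which atrophy is usually read, were both lower on GelMA-PSS than on TCP, by 37.5% and 35.6%, and they parted in how GelMA compared. Fbxo32 encodes the substrate-binding F-box subunit of an SCF ligase whose known targets include MyoD and eIF3f. The gene lies on the minus strand of mouse chr15:58175879-58214932 (build GRCm38, the same assembly as mm10) and has a transcript of 6976 bases in 9 exons. It was measured at 94.99 CPM on TCP (11566 counts), 77.3 CPM on GelMA (7023 counts) and 59.4 CPM on GelMA-PSS (10759 counts). The 3 libraries thus stood apart in steps of similar size. The ratio of GelMA-PSS to TCP was 0.625 (0.609 to 0.642), that of GelMA-PSS to GelMA 0.769 (0.746 to 0.792) and that of GelMA to TCP 0.814 (0.790 to 0.838). The correction for length and GC content took the log2 ratio against TCP from -0.67 to -0.34 and that against GelMA from -0.37 to 0.07, so the lower value against GelMA was not kept and that against TCP was much reduced. The antisense gene Gm15943 shares 186 of the exonic bases of Fbxo32, or 2.67% of the transcript, and reads of the 2 genes cannot be told apart if strand was not used in counting.

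Trim63 encodes a RING-finger ligase of the sarcomere that takes part in degrading myosin heavy chain and other thick-filament proteins. It lies on the plus strand of chr4:134315120-134329629 and has the shortest transcript of the set, 1886 bases in 9 exons, with no stretch of 50 bases shared with another gene. Its promoter is shown because it is the one promoter of the set in which both motifs searched were found, the FoxO core GTAAACA, which reads TGTTTAC on the other strand, and an E-box of the myogenic factors, spelled CAGCTG on both strands. The sequence is from RefSeq, covers chr4:134314870-134315169 of GRCm38.p6 on the plus strand, and holds 250 bases before the annotated start and 50 after it, with the motif letters in capitals and all else in lower case.
Trim63 promoter: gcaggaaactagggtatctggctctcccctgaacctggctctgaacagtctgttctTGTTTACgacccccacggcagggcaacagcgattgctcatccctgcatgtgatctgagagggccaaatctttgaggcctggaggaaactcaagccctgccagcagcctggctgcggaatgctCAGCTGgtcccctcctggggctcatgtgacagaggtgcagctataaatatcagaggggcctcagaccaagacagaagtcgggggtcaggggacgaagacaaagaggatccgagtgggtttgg
The FoxO core, read on the other strand, begins at base 57 of the window and the E-box at base 179, counted from 1 at the first base printed, and the motifs do not overlap. Among 32851 promoter windows of the same length, 3.65% held the FoxO core and 16.3% the E-box. Windows were given for 8 of the 10 genes, 9 windows in all. Apart from Trim63, the only match was an E-box in 1 of the 2 windows of Nedd4. A match is a string of letters and was not tested as a binding site.

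Trim63 was measured at 97.5 CPM on TCP (11867 counts), 68.2 CPM on GelMA (6198 counts) and 62.8 CPM on GelMA-PSS (11371 counts). Here the 2 hydrogels lay close together and TCP stood above both. The ratio was 0.644 (0.628 to 0.661) for GelMA-PSS to TCP and 0.700 (0.679 to 0.722) for GelMA to TCP, but 0.920 (0.892 to 0.949) for GelMA-PSS to GelMA. The log2 ratio of GelMA to TCP was -0.51, the lowest of the 10 genes as scaled, and -0.47 after the correction, when Foxo1 was lower. The log2 ratios of GelMA-PSS moved away from 0 under the correction, to -0.81 against TCP and -0.34 against GelMA, opposite to Fbxo32. Within the pair, Trim63 took 50.6% of the counts on TCP, 46.9% on GelMA and 51.4% on GelMA-PSS, and per base of transcript 79.1%, 76.6% and 79.6%. The shares of both ligases thus stayed within 5 percentage points across the 3 libraries. The Trim63 minus Fbxo32 difference of log2 ratios, however, was 0.04 against TCP and 0.26 against GelMA as scaled but -0.46 and -0.42 after the correction, so the even balance rests on the uncorrected values. Their summed level per kilobase was 65.3, 47.2 and 41.8 CPM.

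Of the other 2 ligases of the set, Fbxo30 hardly differed between libraries, while Nedd4 stood as far below GelMA on GelMA-PSS as Fbxo32 did. Fbxo30, whose product is a ubiquitin ligase held in check by BMP signaling in muscle, lies on chr10:11281330-11298052 (plus strand, transcript of 5060 bases). Its level was 28.9 CPM on TCP, 28.9 on GelMA and 27.0 on GelMA-PSS. The GelMA to TCP ratio of 1.00 had an interval that held 1 (0.952 to 1.05), and after the correction its log2 ratios were -0.03 against TCP and 0.02 against GelMA. Nedd4, a HECT-domain ligase with roles in trafficking, growth factor signaling and denervation atrophy, lies on chr9:72662346-72749852 (plus strand, transcript of 5499 bases in 29 exons). It was measured at 1074 CPM on TCP, 1186 on GelMA and 909 on GelMA-PSS. GelMA-PSS was thus the lowest library, at 0.846 of TCP (0.840 to 0.853) and 0.766 of GelMA (0.761 to 0.772), although the corrected log2 ratios were only -0.04 and -0.11. Per kilobase of transcript Nedd4 stood first of the 10 genes in every library, at 195, 216 and 165 CPM, followed by Trim63 at 51.7, 36.2 and 33.3 CPM.

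**Figure D2:**
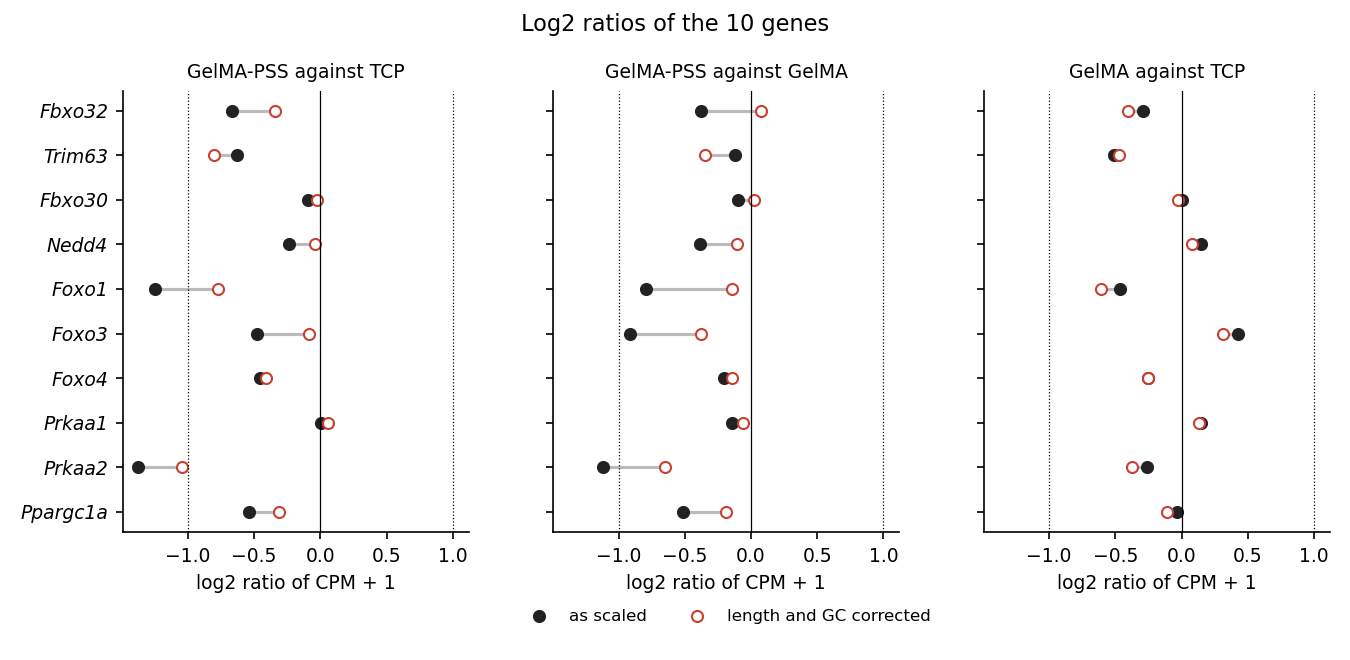
Log2 ratios of CPM + 1 for the 10 genes in the 3 pairs of substrates, with filled points as scaled, open points after the correction for transcript length and GC content, and dotted lines at 2-fold. Only Prkaa2 lies beyond 2-fold against both controls as scaled. In the 2 panels with GelMA-PSS the open points of Trim63 lie farther from 0 than the filled ones, and those of Fbxo32, Foxo1, Foxo3 and Prkaa2 lie nearer.

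The 3 FoxO genes were each lowest on GelMA-PSS but ran differently between the controls. Foxo1 lies on chr3:52268336-52353221 (plus strand) and has the longest transcript of the set, 8665 bases in 3 exons. Its level was 37.3 CPM on TCP (4538 counts), 26.8 CPM on GelMA (2435 counts) and 15.1 CPM on GelMA-PSS (2732 counts). The libraries stood apart from each other by far more than counting error. The ratio was 0.405 (0.386 to 0.424) for GelMA-PSS to TCP, 0.563 (0.533 to 0.595) for GelMA-PSS to GelMA and 0.719 (0.684 to 0.755) for GelMA to TCP. Foxo1 had the second lowest log2 ratio of the set against TCP, -1.25, at percentile 1.32 of all genes. After the correction it was -0.77 against TCP but only -0.14 against GelMA, and -0.61 for GelMA against TCP, so that the corrected values put both hydrogels near each other and below TCP. The antisense gene Gm20402 shares 674 exonic bases with Foxo1, which is 7.78% of its transcript.

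Foxo3, the FoxO factor most often tied to autophagy and to Fbxo32 in muscle, lies on chr10:42181841-42276755 (minus strand, transcript of 6848 bases). It was measured at 14.7 CPM on TCP, 20.2 on GelMA and 10.3 on GelMA-PSS. In contrast to Foxo1, GelMA was the highest library, with a ratio of 1.37 to TCP (1.28 to 1.46) and a log2 ratio at percentile 92.7 of all genes. GelMA-PSS stood at 0.697 of TCP (0.653 to 0.744) and 0.509 of GelMA (0.477 to 0.543), or log2 ratios of -0.48 and -0.91 that became -0.09 and -0.38 with the correction. Foxo4, the third FoxO gene expressed in muscle, lies on chrX:101254528-101260873 (plus strand, transcript of 3162 bases). Its level was 48.0 CPM on TCP, 40.0 on GelMA and 34.6 on GelMA-PSS. The steps were small and even, at 0.722 for GelMA-PSS to TCP and 0.866 for GelMA-PSS to GelMA. Its transcript is near the middle of all transcript lengths, and the correction left its log2 ratios almost where they were, at -0.41 and -0.15 in place of -0.46 and -0.20.

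Before the correction, the makeup of the FoxO family therefore differed between substrates. Per base of transcript Foxo4 was the most abundant FoxO gene in every library, with 70.1% of the family on TCP, 67.7% on GelMA and 77.2% on GelMA-PSS. The share of Foxo1 was 19.9% on TCP, 16.5% on GelMA and 12.3% on GelMA-PSS, while that of Foxo3 was 9.96%, 15.8% and 10.6%. In counts, without division by length, Foxo1 took 37.3%, 30.8% and 25.1%. The summed family level per kilobase was 21.6 CPM on TCP, 18.7 on GelMA and 14.2 on GelMA-PSS. The shares also carry the difference in transcript length. The Foxo1 minus Foxo4 difference of log2 ratios was -0.79 against TCP and -0.59 against GelMA as scaled, and -0.36 and 0.00 after the correction. For Foxo3 minus Foxo4 it was -0.02 and -0.71 as scaled, and 0.32 and -0.23 after the correction.

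**Figure D3:**
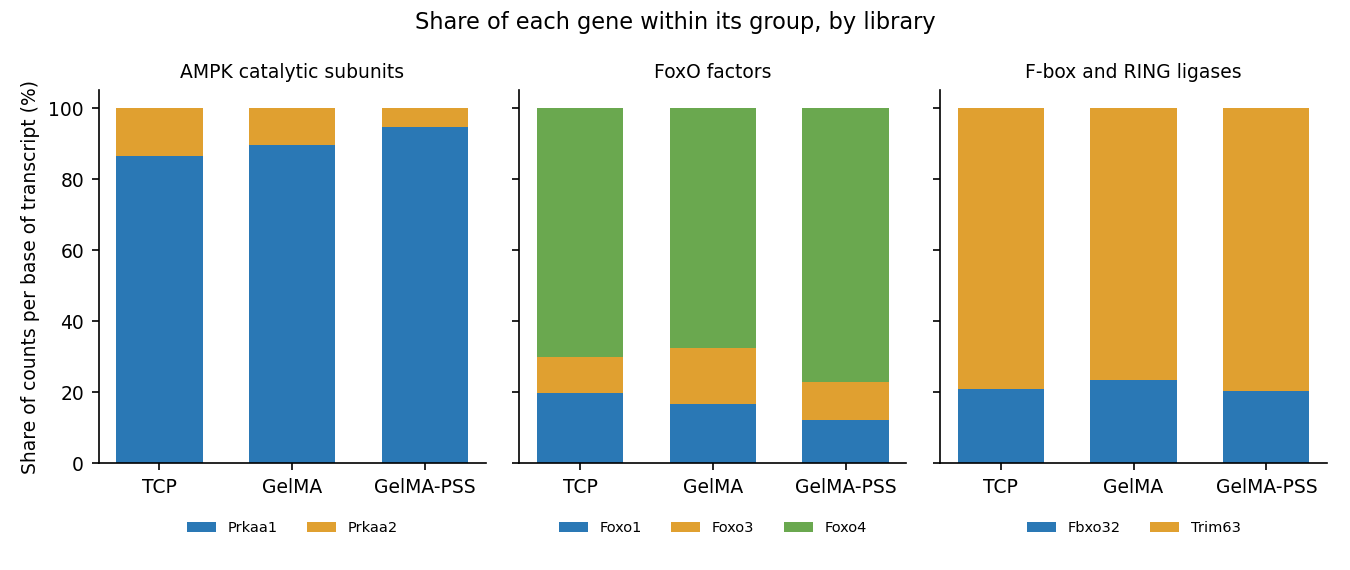
Share of each gene in its group in percent, from counts divided by transcript length, for the 2 AMPK catalytic subunits, the 3 FoxO factors and the ligases Fbxo32 and Trim63, with 1 stacked bar per library. The Prkaa2 share shrinks from 13.6% on TCP to 5.23% on GelMA-PSS, while the split between Trim63 and Fbxo32 hardly differs between the bars.

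Of the 2 AMPK catalytic subunit genes, Prkaa2 was well below both controls on GelMA-PSS, whereas Prkaa1 lay at the TCP level. Prkaa2 encodes α2, the catalytic subunit that prevails in mature skeletal muscle, and Prkaa1 encodes α1, which most cell types express. Prkaa2 lies on chr4:105029874-105109890 (minus strand, transcript of 7969 bases in 9 exons). It was measured at 18.4 CPM on TCP (2240 counts), 15.2 CPM on GelMA (1382 counts) and 6.48 CPM on GelMA-PSS (1174 counts). The controls were close and GelMA-PSS stood well below both, with a ratio of 0.352 to TCP (0.328 to 0.378) and of 0.426 to GelMA (0.394 to 0.461). The log2 ratio against TCP was at percentile 0.797 of all genes. After the correction the log2 ratios were -1.04 and -0.65, at percentiles 2.09 and 4.28, so Prkaa2 remained the lowest of the 10 genes in both comparisons but passed 2-fold only against TCP.

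Prkaa1, on chr15:5143861-5181899 (plus strand, transcript of 4655 bases), was measured at 68.4 CPM on TCP, 75.9 on GelMA and 68.6 on GelMA-PSS. GelMA-PSS and TCP could not be separated at this depth, with a ratio of 1.00 (0.976 to 1.03); its log2 value of 0.00 became -0.10 with libraries scaled by total counts, -0.40 with TPM and 0.06 with the correction. GelMA stood a little higher, at 1.11 of TCP (1.08 to 1.15). Prkaa2 made up 21.2% of the catalytic subunit counts on TCP (20.4 to 22.0), 16.7% on GelMA (15.9 to 17.5) and 8.63% on GelMA-PSS (8.16 to 9.12), and per base of transcript 13.6%, 10.5% and 5.23%. The Prkaa2 minus Prkaa1 difference of log2 ratios was -1.38 against TCP and -0.97 against GelMA as scaled, and -1.10 and -0.58 after the correction. Summed per kilobase, both subunits came to 17.0 CPM on TCP, 18.2 on GelMA and 15.6 on GelMA-PSS.

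Ppargc1a lies on chr5:51454250-51567726 (minus strand, transcript of 6464 bases in 13 exons) and was the least abundant of the 10 genes per kilobase in every library. It was measured at 6.77 CPM on TCP (824 counts), 6.60 CPM on GelMA (600 counts) and 4.33 CPM on GelMA-PSS (785 counts). The controls could not be separated, with a ratio of 0.976 (0.877 to 1.09), and GelMA-PSS stood below both at 0.640 of TCP (0.580 to 0.707) and 0.656 of GelMA (0.589 to 0.731). The corrected log2 ratios were -0.31 and -0.19 in place of -0.54 and -0.51.

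**Figure D4:**
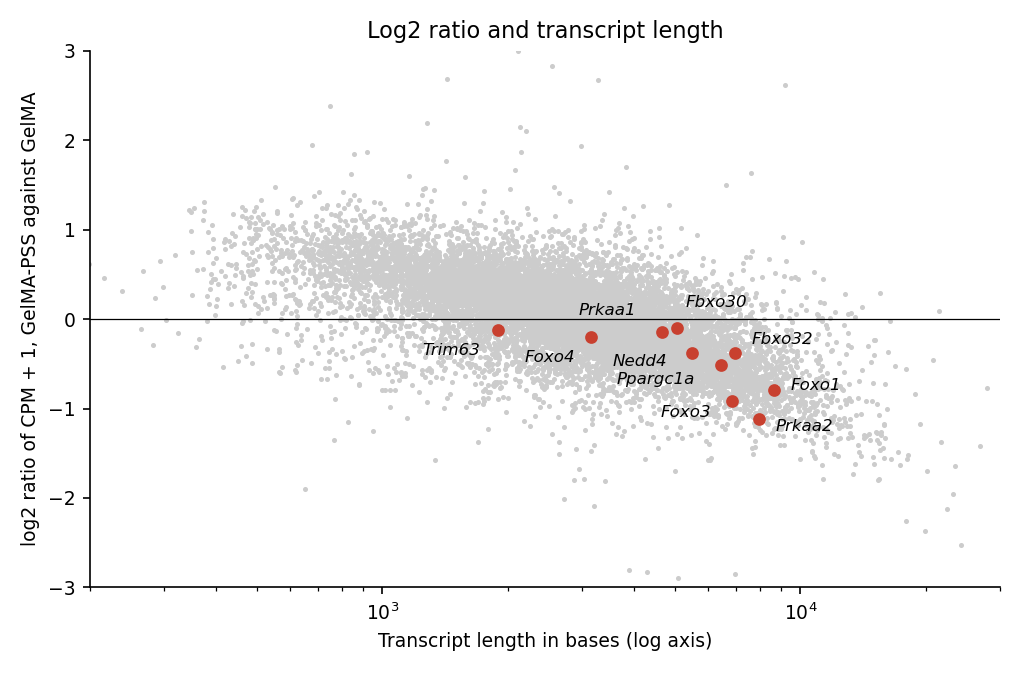
Log2 ratio of CPM + 1 for GelMA-PSS against GelMA over transcript length on a log axis, with grey points for the genes past the filter and red points for the 10 genes; the few genes outside the axes are not drawn. The cloud slopes down with length, and the long members Foxo1, Foxo3 and Prkaa2 lie in its lower right part, at -0.79, -0.91 and -1.12.

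The transcripts of the 10 genes had a median of 5981.5 bases, from 1886 to 8665, against a median of 2912 bases over all genes, and 9 of the 10 were longer than that median. Genes with transcripts of 5000 bases or more had a median log2 ratio of -0.38 against TCP and -0.48 against GelMA, where the 7 long genes of the set had medians of -0.54 and -0.51. Whether the dependence on length lies in the libraries or in the cells was not tested. The log2 ratios of Trim63, Foxo1, Foxo4 and Prkaa2 against TCP were, after rounding, -0.41 or lower both as scaled and as corrected. Against GelMA their corrected log2 ratios were -0.34, -0.14, -0.15 and -0.65 in that order. Those of GelMA against TCP were -0.47, -0.61, -0.26 and -0.37.

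The related genes were read from 8 lists, beside which 5182 of all 13169 genes were lower on GelMA-PSS than on both controls and 5962 were higher. Past 2-fold against both controls, 1.16% of all genes were lower and 1.37% higher. Of the 19 other atrophy ligases past the filter, 13 were lower on GelMA-PSS than on both controls and 3 were higher, none past 2-fold, with a median log2 ratio of -0.53 against TCP and -0.28 against GelMA, or -0.18 and -0.13 after the correction. Fbxo40, a muscle-restricted F-box gene whose product targets IRS1, was at 5.38 CPM on TCP, 1.90 on GelMA and 0.707 on GelMA-PSS, and Stub1, which encodes the chaperone-linked ligase CHIP, was at 118, 112 and 156 CPM. The sarcomeric relatives of Trim63, named here after their values were seen, lay in a like order, TCP above both hydrogels. Trim54 (MuRF3) was at 111, 76.4 and 62.7 CPM and Trim55 (MuRF2) at 161, 111 and 112 CPM. All 3 MuRF genes stood on GelMA at nearly the same fraction of TCP, 0.700 for Trim63, 0.690 for Trim54 and 0.691 for Trim55, and these transcripts are short, with 1434 bases for Trim54 and 2595 for Trim55.

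The proteins that these ligases are known to mark include much of the sarcomere. Of 26 ligase substrates, 15 were lower on GelMA-PSS than on both controls and 5 higher, or 19 and 3 after the correction. Past 2-fold, 8 were lower, beside 1.16% of all genes. Of these, 3 (Myh2, Myh4 and Mybpc1) remained so after the correction, beside 79 of 13050 genes. The median log2 ratio of the list was -0.46 against TCP and -0.30 against GelMA, or -0.54 and -0.17 after the correction. The 4 largest by the named-gene rule were Ttn (titin) at 3073 CPM on TCP, 2808 on GelMA and 522 on GelMA-PSS, Myh4 at 429, 207 and 69.0 CPM, Myh2 at 877, 634 and 211 CPM, and Mybpc1 (slow myosin-binding protein C) at 42.6, 25.2 and 9.57 CPM. Titin has one of the longest transcripts known, at 106824 bases here. Its log2 ratio against GelMA was -2.43 as scaled and -0.08 after the correction, and against TCP -2.55 and -0.92. How well the correction holds at such a length was not tested. Thus, as scaled, transcripts of the ligases of the set and of many substrates were lowest in the same library. After the correction Fbxo32 and Fbxo30 were not lower than on GelMA, with log2 ratios of 0.07 and 0.02. The 5 substrates that were higher as scaled included those named for Fbxo32, Myod1 at 94.3, 105 and 119 CPM and Eif3f at 185, 179 and 275 CPM. Corrected log2 ratios against TCP and GelMA were 0.23 and 0.04 for Myod1 and 0.48 and 0.49 for Eif3f. These are RNA levels, and a link to the ligase was not tested.

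Upstream of FoxO, 13 of 25 regulators were lower than both controls and 8 higher, with medians of -0.23 against TCP and -0.09 against GelMA, or -0.10 and 0.00 after the correction. Crebbp, which encodes the acetyltransferase CBP, was the 1 gene past 2-fold, at 30.9 CPM on TCP, 38.8 on GelMA and 12.5 on GelMA-PSS, with corrected log2 ratios of -0.62 and -0.71. Downstream, the 34 FoxO target genes (the ligases themselves not counted) were split, with 12 lower than both controls and 16 higher and medians of -0.04 and 0.13, or 0.10 and 0.17 after the correction. Bnip3, a mitophagy receptor gene that FoxO3 activates and hypoxia induces, was the 1 target past 2-fold and was higher, at 90.7 CPM on TCP, 155 on GelMA and 318 on GelMA-PSS, with corrected log2 ratios of 1.47 and 0.62. Of the atrophy inputs (TGF-β family, glucocorticoid, cytokine and denervation genes), 18 of 24 were lower and 3 higher, none past 2-fold, with medians of -0.20 and -0.36, or -0.20 and -0.16 after the correction. Fst, which encodes the myostatin antagonist follistatin, was at 187, 89.0 and 58.0 CPM, while myostatin itself did not exceed 0.05 CPM. Tnfrsf12a, the TWEAK receptor gene, was at 175, 165 and 211 CPM. It was lowest on GelMA-PSS instead with the correction or with TPM, but highest with TPM relative to the median of all genes.

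**Figure D5:**
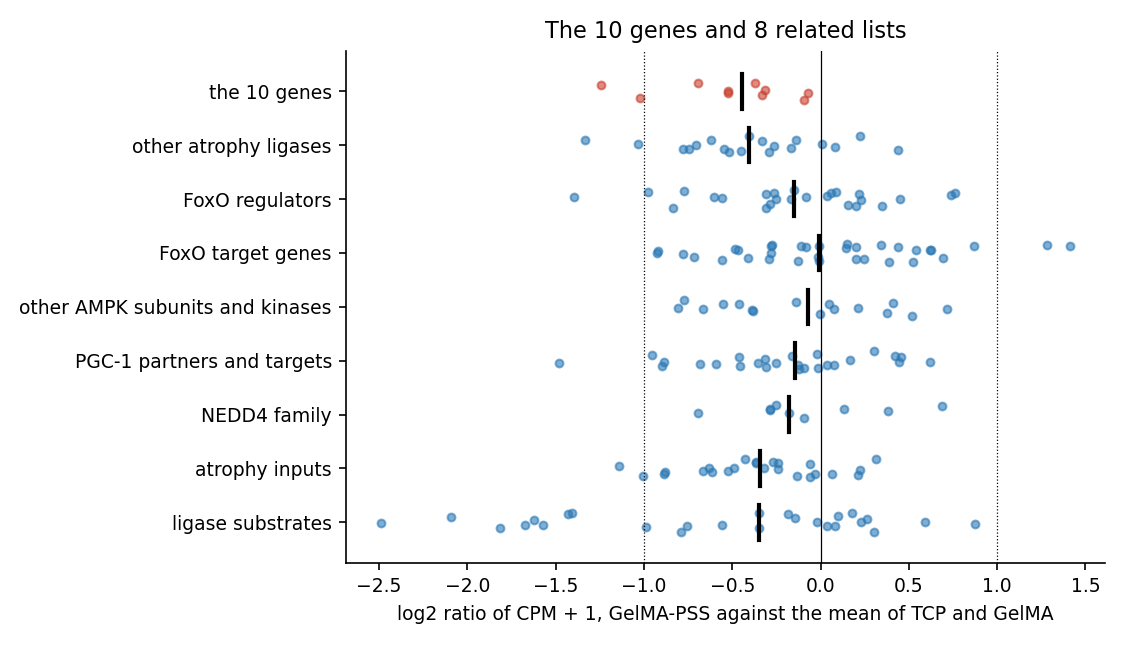
Log2 ratio of CPM + 1 for GelMA-PSS against the mean of TCP and GelMA, with 1 point per gene past the filter, a black bar at the median of each list and dotted lines at 2-fold; points are spread vertically for legibility only. The 10 genes have a median of -0.45, FoxO target genes are split around 0, and ligase substrates reach the lowest values.

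Of 16 further AMPK subunits and kinases, 7 were lower than both controls and 6 higher, none past 2-fold, with medians of -0.09 against TCP and -0.06 against GelMA, or -0.17 and -0.09 after the correction. The list's extremes were Camkk1, an upstream kinase gene, at 4.20 CPM on TCP, 7.82 on GelMA and 10.1 on GelMA-PSS, and Fnip1, a folliculin partner gene, at 58.5, 57.1 and 32.6 CPM. The remaining subunits of the trimer are named as a set, after their values were seen. Prkag3, the γ3 subunit gene of fast skeletal muscle, was at 175 CPM on TCP, 107 on GelMA and 85.7 on GelMA-PSS, and Prkab2, the β2 gene of muscle, at 33.3, 33.8 and 25.4 CPM. The widespread subunit genes Prkab1 and Prkag1 were at 32.5, 33.1 and 34.7 CPM and at 82.8, 80.5 and 109 CPM, and Prkag2 was at 6.37, 4.89 and 7.55 CPM. GelMA-PSS was the lowest library for Prkaa2, Prkab2 and Prkag3 under every scaling tried. It was the highest for Prkab1, Prkag1 and Prkag2 as scaled. However, Prkab1 was lowest there with total counts and with TPM and lay between the controls with the correction, and with TPM Prkag1 was lowest and Prkag2 between. With TPM the median log2 ratio of all genes was itself -0.31 against TCP and -0.36 against GelMA, and with total counts -0.06 and -0.10. Relative to that median, Prkag1 and Prkag2 were highest on GelMA-PSS with TPM. Prkab1 was then highest with total counts and between the controls with TPM. Per base of transcript, Prkag3 was the most abundant of the 7 subunits on TCP with 40.3% and Prkag1 on GelMA and GelMA-PSS with 37.8% and 48.6%.

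Among the PGC-1 partners and targets, 15 of 26 were lower than both controls and 7 higher, with medians of -0.15 against TCP and -0.19 against GelMA, or -0.11 and -0.16 after the correction. Mef2c, a muscle transcription factor gene that PGC-1α coactivates, was the 1 gene past 2-fold, at 289 CPM on TCP, 181 on GelMA and 81.0 on GelMA-PSS, with corrected log2 ratios of -1.61 and -0.85. Ppargc1b, the closest relative of Ppargc1a and named after its value was seen, was at 9.77, 11.5 and 5.01 CPM. In the NEDD4 family, 6 of 9 genes were lower than both controls and 3 higher, with medians of -0.10 and -0.26, or 0.03 and 0.08 after the correction. Its extremes were Hecw2 at 53.4, 41.9 and 28.8 CPM and the adaptor gene Ndfip1, which activates NEDD4 ligases, at 134, 134 and 216 CPM. After the correction the log2 ratios of Hecw2 were -0.32 against TCP and 0.24 against GelMA, so it was no longer lowest on GelMA-PSS.

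Finally, the genes nearest to 3 members were found by the Euclidean distance over the log2 ratios of GelMA to TCP and GelMA-PSS to TCP, among 9265 genes with a mean CPM of 10 or more. Nearest to Fbxo32 were Rbm24, Coro6, Ccar1, Nnt and Smim13, at distances of 0.00675 to 0.0306. Nearest to Trim63 were Pdcd4, Stc2, Hsf4, Pick1 and Tmem62, at 0.0289 to 0.0378, and nearest to Prkaa2 were Mbd6, Ptprf, Cemip, Adgrl3 and Auts2, at 0.00696 to 0.0748. With 3 libraries behind each pattern, such closeness is a description only.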

How the data were processed

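RNA sequencing counts were analysed for 3 libraries of C2C12 cells, 1 per substrate. The files deposited by the authors hold raw read counts per gene symbol, not normalized. TopHat, edgeR and the builds mm10 and hg19 are named in the submitters' processing notes, without their roles; the counting tool, its strand setting and the annotation are not given in the sources used here. The labels and the methods name different library kits; the methods call the reads strand-specific, but whether counting used strand is not stated. More genes had a count of 2 than of 1 in each library (for example 866 and 651 on GelMA), so both reads of a pair may have been counted and intervals may be too narrow.

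Of 23282 lines, 35 symbols occurred more than once and were summed, which left 23238. Counts were scaled to CPM (counts per 1000000 scaled counts) with TMM factors of 1.02 (TCP), 1.04 (GelMA) and 0.943 (GelMA-PSS) from edgeR 4.0.16 in R 4.3.3. The 13169 genes that reached 1 CPM in any library were held against a fold threshold of 2 on log2(CPM + 1), against each control in the same direction; the log2(CPM + 1) scale understates differences of low genes. No p-value was computed. Ratios of 2 counts have exact conditional binomial intervals, levels exact Poisson intervals and shares Clopper-Pearson intervals. The correction is a loess fit (span 0.3, statsmodels 0.14.6) of each log2 ratio on log2 transcript length and then on GC content, with the longest coding transcript per gene of GENCODE vM21 on GRCm38 (13050 genes). Coordinates are those of the whole gene in that annotation. The fold calls were run before use on simulated counts with known changes. Those counts held counting error only and were scaled by total counts, so the run cannot speak to TMM scaling or the spread between cultures.

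The 10 genes and the related lists were chosen with earlier results of these data known. Named genes were the 10, then in each list those past 2-fold against both controls (at most 4, by size against the nearer control) or, where none passed, the genes of highest and lowest log2 ratio against the mean of TCP and GelMA, and the 5 nearest genes to Fbxo32, Trim63 and Prkaa2. The band of 5000 bases was chosen after seeing the data. Alternatives were DESeq2 1.42.0 size factors, total counts, upper-quartile factors, pseudocounts of 0.1 and 5, TPM, no filter, 10 CPM, a threshold of 1.5-fold and halved counts.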

Additional observations from a re-analysis of the deposited data

How the results depend on the processing

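No paired analysis was possible because each substrate has 1 library, and for the same reason no library could be left out. Prkaa2 alone passed 2-fold lower against both controls under size factors of DESeq2, upper-quartile factors, total counts, a pseudocount of 0.1, no filter and a filter of 10 CPM. With a pseudocount of 5 the count was 0 and with the length and GC correction it was 0. It was 2 (Foxo1 and Prkaa2) with TPM (transcript counts per length, without TMM factors) and 2 (the same genes) at 1.5-fold. The median log2 ratio over the 10 genes, -0.51 against TCP, -0.38 against GelMA and -0.45 against the mean of the controls as reported, moved as follows. With total counts it was -0.52 against GelMA and -0.57 against the mean. With a pseudocount of 5 it was -0.33 and -0.34. With the correction it was -0.33 against TCP, -0.14 against GelMA and -0.24 against the mean, and with TPM -0.78, -0.72 and -0.78, where the median of all genes was itself -0.31 against TCP and -0.36 against GelMA. The filter of 10 CPM, which removes Ppargc1a, gave -0.37 against the mean. Dividing by transcript length lowered the Prkaa2 share of AMPK catalytic counts to 13.6% on TCP, 10.5% on GelMA and 5.23% on GelMA-PSS. Of the 30 log2 ratios of single genes, 28 kept their sign with DESeq2 size factors, 28 with total counts, 27 with the correction and 28 with TPM, and all 30 under the other scalings and pseudocounts.

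Over all genes, 180 were higher and 153 lower past 2-fold against both controls. The counts were 97 and 261 with total counts, 259 and 294 with a pseudocount of 0.1, 106 and 77 with a pseudocount of 5, 57 and 79 with the correction, 29 and 626 with TPM and 1064 and 946 at 1.5-fold. Halving the counts left the same 3 of the 30 ratio intervals holding 1 (Prkaa1 for GelMA-PSS to TCP, Ppargc1a and Fbxo30 for GelMA to TCP). Depth limits Ppargc1a most, with 600 counts on GelMA. The cause of these changes was not tested beyond what each setting itself alters.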

Other observations

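Within the lists, several groups of genes around FoxO differed in ways the medians hide; they were picked out after their values were seen and carry no replicate check. The 14-3-3 proteins hold phosphorylated FoxO in the cytoplasm, and 5 of their 6 genes past the filter were higher on GelMA-PSS than on both controls: Ywhaq was at 199 CPM on TCP, 232 on GelMA and 365 on GelMA-PSS, and Ywhah at 113, 128 and 201 CPM, while Ywhag was at 275, 264 and 225 CPM. Being higher than both controls was common, at 5962 of the 13169 genes tested. With the correction the same 5 genes stayed highest. Their corrected log2 ratios against TCP and GelMA included 0.68 and 0.40 for Ywhaq, but 0.06 and 0.12 for Ywhae and 0.17 and 0.03 for Ywhaz. Ywhab, Ywhae and Ywhaz turned to lowest on GelMA-PSS with TPM, and Ywhaz lay between the controls with total counts. Relative to the median of all genes, however, Ywhab and Ywhae were highest with TPM. Ywhaz was then between the controls with TPM and highest with total counts. Ep300, the acetyltransferase gene related to Crebbp, was at 83.8, 103 and 46.8 CPM. Its log2 ratios were -0.83 against TCP and -1.12 against GelMA as scaled, and -0.28 and -0.38 after the correction. Among FoxO targets with roles in autophagy, Bnip3l (121, 145 and 243 CPM), Gabarapl1 (48.3, 52.4 and 77.9 CPM) and Map1lc3b (171, 159 and 215 CPM) were highest on GelMA-PSS, except Map1lc3b with TPM, whereas Ulk1 (88.4, 90.3 and 63.5 CPM) and Ulk2 (66.9, 66.9 and 61.9 CPM) were lowest there and Becn1 (118, 98.8 and 107 CPM) lay between the controls. Relative to the median of all genes, Map1lc3b was highest on GelMA-PSS with TPM too. With the correction the log2 ratios of Ulk2 were 0.13 against TCP and 0.22 against GelMA, so it was no longer lowest. Txnip, a brake on glucose uptake, was at 61.8, 147 and 234 CPM.

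Several other FoxO targets were lowest on GelMA-PSS as scaled, as were 39.3% of all genes. The sestrin genes, whose products feed back on AMPK and mTOR, were all lowest on GelMA-PSS: Sesn1 was at 46.7, 39.1 and 35.0 CPM, Sesn2 at 18.5, 15.2 and 8.36 CPM and Sesn3 at 9.11, 11.8 and 5.91 CPM. Corrected log2 ratios against TCP and GelMA were -0.33 and -0.07 for Sesn1, -0.94 and -0.65 for Sesn2, and -0.10 and -0.26 for Sesn3. The insulin pathway genes Irs2 (7.10, 5.87 and 2.93 CPM) and Insr (51.0, 52.8 and 29.8 CPM) were also lowest there, and the corrected log2 ratios of Insr were -0.26 against TCP and -0.12 against GelMA. Of the genes placed in the list of other atrophy ligases, Klhl40 was at 83.0, 55.5 and 39.1 CPM and Asb2 at 19.3, 11.7 and 6.84 CPM, while Fbxl22 was at 21.8, 13.7 and 13.9 CPM. Whether each listed gene acts as a ligase in atrophy was not tested.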
